A study of Mus musculus with 2 samples.

Results

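Adventitial fibroblasts are the connective tissue cells of the cuffs around airways and larger blood vessels. In mouse tissues they are usually recognised by Pi16 (a peptidase inhibitor), Clec3b (tetranectin, a plasminogen-binding lectin), Dpt (dermatopontin), Col14a1 (a collagen that sits on collagen fibrils) and Serpinf1 (the secreted serpin PEDF). They are known for decorin-rich matrix, complement proteins and chemokines, whereas alveolar fibroblasts of the gas-exchange walls carry Npnt, Ces1d, Tcf21, Inmt and Col13a1. Here they were picked out by a gate of detected genes in single-cell RNA-seq of injured lung. A cell entered with UMIs (unique molecular identifiers, a tag for each captured mRNA molecule) of at least 2 of Col1a1, Col1a2 and Col3a1 and of at least 2 of Pi16, Col14a1, Dpt, Clec3b and Serpinf1. It had fewer than 2 of the 5 alveolar genes above and 0 UMIs of Ptprc, Pecam1, Epcam, Msln, Cox4i2 and Myh11, which mark other lineages. The gate held 272 of 45824 cells kept in all, 157 of 30187 from Pclaf WT lungs and 115 of 15637 from Pclaf KO lungs.

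The study asked how loss of Pclaf, which encodes a PCNA-binding protein of proliferating cells, affects regeneration of the injured lung. Both groups were mice of 8 to 10 weeks given bleomycin, a drug that damages the alveolar epithelium, at 1.35 U/kg. Lungs were taken 1 week later, and the labels describe a sort for cells negative for Cd31 and Cd45 and positive for Epcam before the 10x 3' v3.1 library. The Pclaf KO carries its deletion in every cell, the controls differ from it only in genotype as far as the labels say, and no uninjured lung was analysed here. There was 1 library per genotype and the number of mice behind each was not given, so no difference between WT and KO could be tested: genotype and library cannot be told apart. Each value below is a sum of UMIs over cells, given as CPM (UMIs of the gene per 1000000 UMIs of those cells), and every interval is an exact 95% interval that covers counting error only. A gene is called past the fold when 2 sums differ at least 2-fold and the interval of their log2 ratio excludes 0.

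The WT matrix held 30669 barcodes with 98171818 UMIs (median 2105 per barcode) and the KO matrix 17172 barcodes with 111267567 UMIs (median 5682), while the labels state that 16000 cells per group were loaded. The limits on genes and mitochondrial UMIs stated for the study left 30187 and 15637. The libraries shared 163 barcodes, of which 1 was carried by a WT cell of the gate and 0 by a KO cell. The gated cells gave 599782 UMIs in WT (median 3210 per cell) and 520563 in KO (median 3780). The labelled sort is for Epcam-positive cells, yet 1818 WT and 2214 KO cells with collagen UMIs and 0 Epcam UMIs were present, so how the sort bears on the shares of fibroblasts is not known and they are not shares of the lung.

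Gated cells made up 0.520% (0.442 to 0.608) of kept WT cells and 0.735% (0.608 to 0.882) of kept KO cells. Over the 1818 WT and 2214 KO collagen-expressing cells that passed the exclusions, the order turned: 8.64% (7.38 to 10.0) in WT against 5.19% (4.31 to 6.20) in KO. With cells under 1000 UMIs left out and every other cell thinned to 1000 UMIs before gating, 149 WT and 189 KO cells passed, and their shares of fibroblasts were 9.79% and 9.41%. The limit on alveolar genes removed most candidates: 887 WT and 1571 KO fibroblasts had at least 2 adventitial markers, and 730 and 1456 of them also had at least 2 alveolar markers. A further 140 WT and 114 KO cells met every other limit but carried a UMI of an excluded gene. Among fibroblasts with 4 or 5 adventitial markers, 52 of 105 in WT and 53 of 209 in KO passed the alveolar limit, so the gate kept a smaller part of them in the more deeply sequenced KO library.

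In the GRCm38 annotation Pi16 lies on chromosome 17 (29317680 to 29330593, plus strand), Clec3b on 9 (123150946 to 123157432, plus), Dpt on 1 (164796644 to 164824266, plus), Col14a1 on 15 (55307750 to 55520803, plus) and Serpinf1 on 11 (75409769 to 75422701, minus). The gated cells were checked against the label by the number of adventitial markers each carried, and they were not alike. Cells with 2 markers numbered 85 in WT and 47 in KO (54.1% and 40.9%), cells with 3 markers 20 and 15, and cells with 4 or 5 markers 52 and 53 (33.1% and 46.1%). Just outside the threshold, with 1 marker, lay 135 WT and 50 KO cells. Just outside the alveolar limit, with 2 alveolar markers, lay 111 and 113 cells. Depth rose from a median of 1067 UMIs in WT and 2154 in KO at 1 marker to 1900 and 2678 at 2 and to 4481 and 4790 at 4 or 5. It did not rise at every step in WT, with medians of 4083 at 3 markers and 3825 at 4. Pi16, the marker most often used for these cells, stood at 3.43, 17.4, 352, 1088 and 1718 CPM in WT cells with 1, 2, 3, 4 and 5 markers. In KO cells it stood at 0, 0, 68.3, 389 and 1650 CPM. After thinning to 1000 UMIs, Pi16 was detected in 32 of 49 WT and 28 of 52 KO cells with 4 or 5 markers and in 0 of 61 and 0 of 43 with 2. In alveolar fibroblasts it was found in 1 of 436 WT and 0 of 514 KO cells. Their gate allowed fewer than 2 adventitial markers, which limits Pi16 there, so this is no independent background level. In cells with Epcam it was found in 0 of 699 WT and 4 of 6033 KO.

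**Figure D1:**
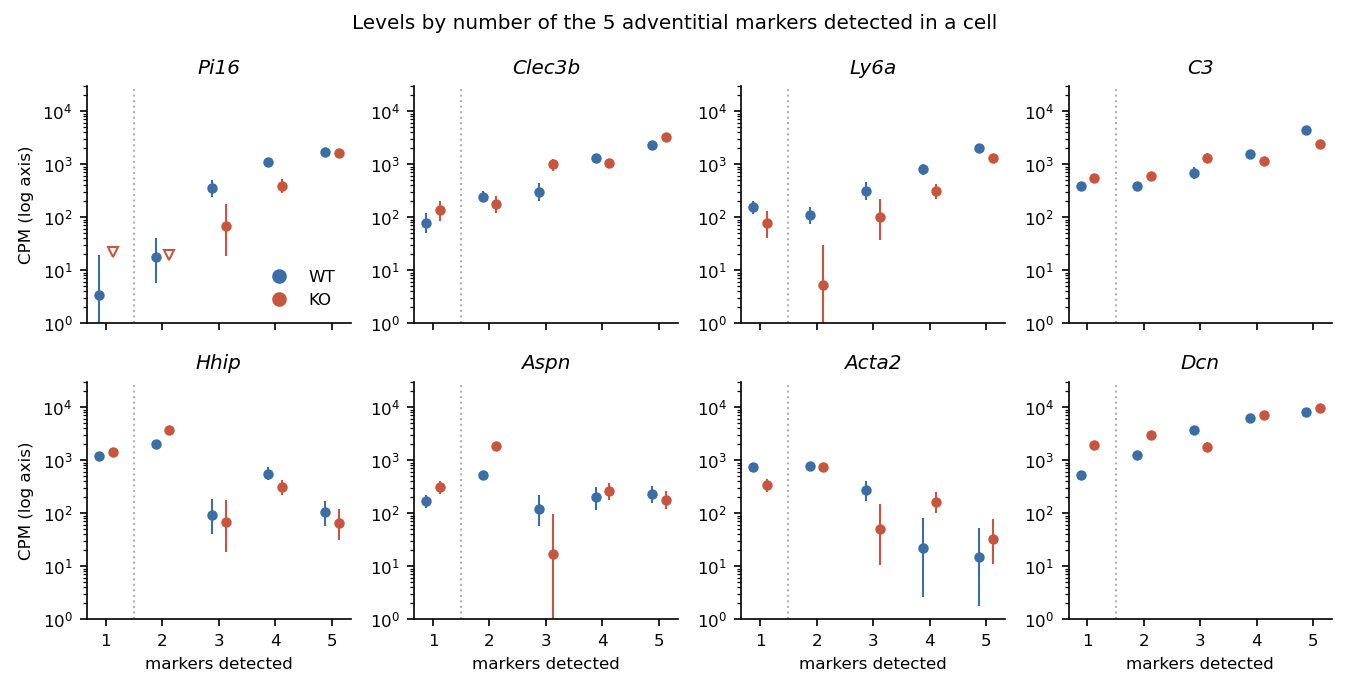
CPM (log axis) of Pi16, Clec3b, Ly6a, C3, Hhip, Aspn, Acta2 and Dcn in cells with 1 to 5 adventitial markers, WT and KO, with Poisson 95% intervals; the dotted line marks the gate at 2 markers and an open triangle the upper limit of 0 UMIs. Pi16, Clec3b, Ly6a and C3 reach their highest values at 5 markers, while Hhip and Acta2 are higher at 2 markers than at 5 in both libraries.

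Pi16 is among the markers counted, so these values describe the gate. Genes outside the gate divided the cells as well, as the comparison by marker number gives, and the cells with 2 markers are called here by that number and not as adventitial fibroblasts. The 2-marker cells were mostly of 2 kinds by combination. Col14a1 with Dpt and no other marker was the combination of 32 WT and 30 KO cells, of which 21 and 28 carried Hhip, the Hedgehog-interacting protein that marks fibroblastic and muscle-like cells near airways, and 18 and 26 carried Aspn (asporin). Hhip stood at 4129 CPM in these WT cells and 5194 CPM in the KO cells, against 287 and 175 CPM in cells with 4 or 5 markers. They also carried the receptors Lgr6 (129 and 263 CPM) and Lgr5 (189 and 346 CPM), the growth factor Fgf18 (83.3 and 196 CPM) and Wnt5a (614 and 790 CPM). Clec3b with Dpt alone was the combination of 33 WT and 10 KO cells, and in WT these were shallow, with a median of 1007 UMIs. Both genes were also common in alveolar fibroblasts, though their gate allowed fewer than 2 adventitial markers. Dpt was found in 240 of 636 WT and 207 of 556 KO alveolar fibroblasts, Clec3b in 151 and 197, and Col14a1 in 14 and 12. The 33 WT cells with Clec3b and Dpt alone held Lyz2 at 5956 CPM, Spp1 at 6583 CPM and Tyrobp at 833 CPM, genes of macrophages. Spp1 UMIs were not limited to them, with 514 here and 534 in the WT cells with Col14a1 and Dpt alone. All WT cells with 2 markers held 2479, and most of these lay in few cells. The 6 gated WT cells with most Spp1 held 982, 479, 413, 178, 171 and 161 UMIs of it. All 6 had 2 markers and 0 Hhip UMIs, so the sums do not show Spp1 to be common in either combination. In the 33 WT cells with Clec3b and Dpt alone, 56 of 65 Tyrobp UMIs were in 1 cell. Of their 465 Lyz2 UMIs 371 were in 1 cell, and the 10 KO cells of this combination had 0 UMIs of Spp1 and of Tyrobp. All 5 markers were carried by 29 WT and 27 KO cells, and Ly6a by 28 and 23 of these.

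The cells with 4 or 5 markers carried further adventitial genes that the gate did not use. Of 3611 genes with at least 20 UMIs in each library, 189 (5.23%) were past the fold higher in cells with 4 or 5 markers than in cells with 2 in both libraries, and 127 (3.52%) were lower in both. Cells were split by marker number on the same UMIs and differ in depth, so these are descriptions. Among 31 tested genes of a list of other adventitial genes, 23 were higher and 1, Aspn, was lower, with medians of 2.56 log2 in WT and 2.56 in KO against 0.00 and -0.06 over all genes.

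Ly6a (Sca-1), a surface protein of adventitial progenitor-like stroma, had 32 UMIs in the 2-marker cells and 342 in the 4- or 5-marker cells of WT, a log2 ratio of 3.76 (3.24 to 4.33). In KO it had 1 and 237 UMIs, a log2 ratio of 7.34 (4.85 to 12.65). Cd34, a sialomucin of the same cells, was higher by 3.63 in WT and 2.85 in KO on the log2 scale. The scavenger receptor Scara5 was rare outside them, with 2 UMIs in WT 2-marker cells against 73, and 1 against 79 in KO. The ectonucleotidase Entpd2 had 0 UMIs in the 2-marker cells of either library and 69 in the 4- or 5-marker cells of each, a log2 ratio of at least 4.87 in WT and at least 3.98 in KO when 0 is set at 3 UMIs. The transcription factor Ebf1 was higher by 5.94 (4.37 to 8.24) and 3.87 (2.61 to 5.53). The other genes with the largest contrast in both libraries were Gxylt2, Lsamp, Gpc6, Pid1, Ly6c1 and Dpep1.

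Complement genes followed the same split, beside shares over all genes of 5.23% higher and 3.52% lower. Of 9 tested complement genes, 8 were higher in the cells with 4 or 5 markers, among them C1s1, C3, C4b and Serping1. C3, the central complement component, went from 385 to 3235 CPM in WT and from 591 to 1845 CPM in KO. Of 11 tested inflammatory genes 4 were higher, Ccl11, Il33, Csf1 and Vcam1, with list medians of 0.35 and 0.45 log2. The alarmin Il33 went from 20.8 to 340 CPM in WT and from 10.7 to 171 CPM in KO, and the eosinophil chemokine Ccl11 from 27.8 to 269 CPM in WT and from 0 to 150 CPM in KO. Decorin (Dcn), a small proteoglycan of collagen fibrils, went from 1260 to 7431 CPM in WT, a log2 ratio of 2.56 (2.40 to 2.73), and from 2951 to 8527 CPM in KO, 1.53 (1.40 to 1.67). Gelsolin (Gsn), which severs actin filaments, and Igfbp4, which binds insulin-like growth factors, were higher by 2.34 and 2.71 log2 in WT and by 2.70 and 2.56 in KO.

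The cells with 2 markers held the contractile and injury-associated genes. Of 21 tested genes of a list of activated fibroblast genes, 0 were higher and 14 lower in cells with 4 or 5 markers. Over all genes 5.23% were higher and 3.52% lower. Smooth muscle actin (Acta2) had 226 UMIs in WT 2-marker cells and 4 in 4- or 5-marker cells, and 142 and 25 in KO. The actin-binding protein Tagln differed by -4.68 (-5.91 to -3.68) and -4.17 (-4.98 to -3.46) log2. Enpp2 (autotaxin, which makes lysophosphatidic acid), Rbfox1, Kctd16, Csmd1, Rgs2, Mustn1 and Thbs1 were also among the 10 lowest by the smaller of the 2 ratios. Of 5 tested smooth muscle genes, 4 were lower in the cells with 4 or 5 markers, and the whole list of 9 summed to 3992 and 6018 CPM at 2 markers against 375 and 357 CPM at 4 or 5. Hhip was the gene of that list with most UMIs, and Myh11, a defining smooth muscle gene, was at 0 because the gate removed it. The share of pericyte genes in the gated cells was 462 CPM in WT and 423 in KO, and Cox4i2 was at 0 for the same reason.

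RNA of other cell types was present in the gated cells and differed between the libraries. The list of 16 immune genes summed to 2703 CPM in WT, with none of its genes at 0, and to 688 CPM in KO, with 7 at 0, and 751 of the 1621 WT UMIs were in 1 cell. Lyz2, which AT2 cells also express and which both lists hold, had most immune UMIs in both libraries, at 1184 CPM in WT and 576 in KO. The 13 AT2 (surfactant-producing cell) genes, Lyz2 included, summed to 1426 CPM in WT, with 376 of 855 UMIs in 1 cell, and to 6103 CPM in KO. The 11 airway genes summed to 215 and 19508 CPM, and in KO nearly all of it was Scgb1a1, with 9384 of its 9952 UMIs in 2 cells. Endothelial genes summed to 432 and 200 CPM, mesothelial genes to 108 and 204 CPM (51 of 106 KO UMIs in 1 cell) and AT1 genes to 277 and 240 CPM. The 7 Schwann cell genes summed to 242 and 236 CPM, but 6 were at 0 in WT and 5 in KO. Scn7a had most of these UMIs. The list summed higher in alveolar fibroblasts, to 510 and 421 CPM, so this sum does not show RNA of Schwann cells. At low counts Scgb1a1 was also found in most other KO cells: the cell with the third highest count held 16 UMIs, and with cells thinned to 1000 UMIs it was detected in 75 of 106 gated KO cells (70.8%), 384 of 514 KO alveolar fibroblasts (74.7%) and 4184 of 6033 KO cells with Epcam (69.4%). In WT the counts were 22 of 127, 91 of 436 and 210 of 699. The part of such RNA in the comparisons below was not tested.

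The paper states that male mice were used in its animal experiments, yet both libraries held cells with transcripts of either sex. The reason was not tested. Of the WT cells of the gate, 36 had Xist UMIs alone, 43 had Y-linked UMIs alone, 3 had both and 75 neither. Of the KO cells, 49 had Xist alone, 21 Y-linked genes alone, 1 both and 44 neither. Beside these counts, Ddx3y, a Y-linked helicase, differed by -1.19 log2 in KO against WT.

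The gated cells were next set against the alveolar fibroblasts of the same libraries, 636 in WT and 556 in KO, gated with the 2 marker lists exchanged. Fibroblasts with at least 2 markers of both lists, 730 of 1818 in WT and 1456 of 2214 in KO, were in neither class. The 2 classes are thus compared without their overlap. The gate genes themselves differ by construction: Pi16 stood at 612 CPM in gated cells and 2.59 CPM in alveolar fibroblasts of WT, and at 578 and 0.937 CPM in KO. Of 9051 genes with at least 20 UMIs over both classes in each library, 323 (3.57%) were past the fold higher in the gated cells in both and 342 (3.78%) lower in both. Of 31 other adventitial genes, 25 were higher and 1, the procollagen enhancer Pcolce2, was lower, with medians of 2.40 log2 in WT and 2.57 in KO against -0.01 and -0.05 over all genes. Of 21 other alveolar fibroblast genes, 0 were higher and 15 lower, with medians of -2.23 and -2.63.

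**Figure D2:**
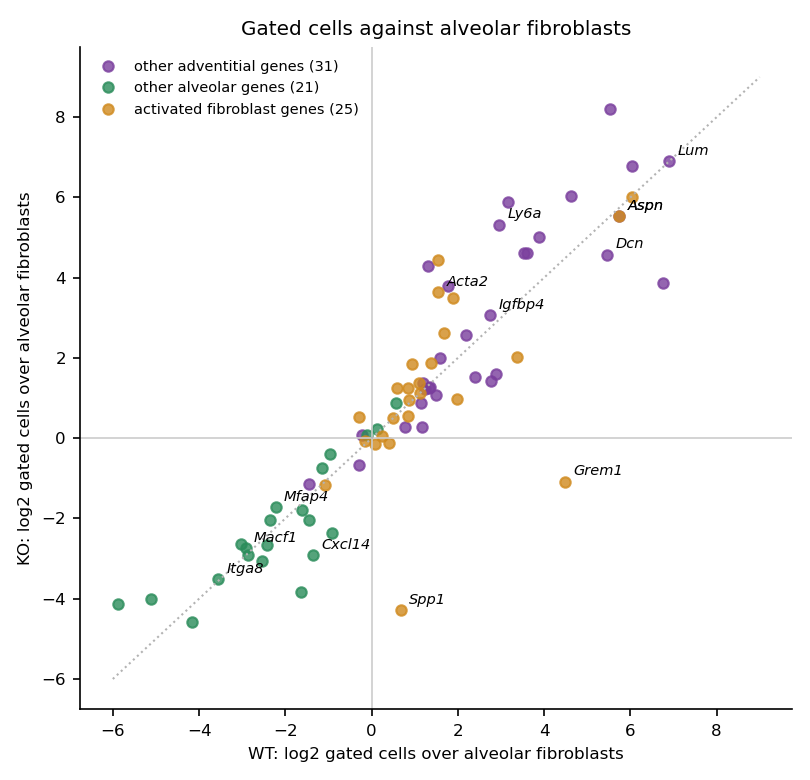
Log2 ratio of gated cells over alveolar fibroblasts in WT (x axis) and KO (y axis) for 31 other adventitial genes, 21 other alveolar fibroblast genes and 25 activated fibroblast genes, with 0 UMIs set at 3. Most adventitial genes lie above 0 in both libraries and most alveolar genes below 0 in both.

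Ranked by the smaller of the 2 libraries' ratios, lumican (Lum), a proteoglycan that spaces collagen fibrils, came first. Lum had 325 UMIs in 63 WT cells and 353 in 54 KO cells of the gate, against 7 and 12 UMIs in the far more numerous alveolar fibroblasts, log2 ratios of 6.90 (5.84 to 8.23) and 6.91 (6.09 to 7.88). The noncoding RNA Meg3 and Scara5 had 0 UMIs in alveolar fibroblasts, so their ratios were at least 6.51 and 6.04 log2 in WT and at least 7.27 and 6.79 in KO. The others of the top 10 were Kctd16, Cdh4, Gxylt2, Lsamp, Entpd2, Aspn and Gpc6. They were divided by marker number: Kctd16, Cdh4 and Aspn were higher in the cells with 2 markers, and Scara5, Gxylt2, Lsamp, Entpd2 and Gpc6 in those with 4 or 5. Dcn was at 89.4 CPM in WT alveolar fibroblasts and 241 CPM in KO, so the gated cells exceeded them by 5.46 (5.21 to 5.72) and 4.58 (4.44 to 4.71) log2.

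At the other end stood B530045E10Rik, with 2 and 1 UMIs in the gated cells, followed by Upk1b, Scube2, Fgfr4, Slc7a10, Colq, Ctnnd2, Chst3, Adra1a and Itga8. The integrin subunit Itga8 had 51 and 49 UMIs in the gated cells and differed by -3.56 (-4.00 to -3.16) and -3.52 (-3.96 to -3.11) log2. Pdgfra, the PDGF receptor shared by most lung fibroblasts, was lower by a smaller margin, -1.62 in WT and -1.80 in KO, and the microfibril protein Mfap4 by -2.23 and -1.72. Wnt2, an alveolar fibroblast ligand, differed by -1.64 and -3.84.

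By role, matrix genes come first, beside shares over all genes of 3.57% higher and 3.78% lower. Of 24 tested collagens, 10 were higher than in alveolar fibroblasts and 2 lower. These counts include the gate markers Col14a1 (higher) and Col13a1 (lower), whose direction was set by the exchanged marker lists. Col3a1, itself in the gate, stood at 8718 and 8082 CPM against 2745 and 2024 CPM. Of 19 proteoglycans and hyaluronan enzymes, 7 were higher (Dcn, Lum, Vcan, Aspn, Podn, Gpc6 and Has1) and Prelp was lower. Elastic fibre genes were closer, with 5 of 20 higher, among them Fbln1 (1.23 and 1.22 log2), Fbln2 (3.89 and 5.02) and Mfap5 (1.33 and 1.25). Elastin itself differed by 0.41 and 0.86. Mgp, the matrix inhibitor of calcification, stood at 35846 CPM in WT and 36507 in KO and exceeded alveolar fibroblasts by 0.30 and 0.33 log2. Cells with 4 or 5 markers alone differed from alveolar fibroblasts in Mgp by -0.30 in WT and 0.18 in KO.

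Signalling genes followed. Of 11 Wnt pathway genes, 5 were higher: the ligand Wnt5a, the inhibitors Sfrp4 and Wif1 and the R-spondin receptors Lgr5 and Lgr6, of which Sfrp4 had 30 of 33 WT and 25 of 25 KO UMIs in cells with 4 or 5 markers. Of 28 TGF-beta and BMP genes, 6 were higher, among them Tgfb3, Gdf10 and Fst, and Bmp3 was lower. Igfbp4, Igfbp5 and Igfbp6 were higher among 5 insulin-like growth factor binding proteins. Of 24 proteases and inhibitors, 8 were higher and Adamts9 was lower. Among 32 transcription factors, 10 were higher, including Prrx1, Osr1, Gli1, Klf4 and Ebf1, and 3 were lower. Of these 3, Tcf21 is an alveolar gate gene, so its direction was set by the gates. Of 13 complement genes, 3 were higher (C2, Cfb and Cd55) and 2 lower (C6 and C7), with list medians of 0.67 log2 in WT and 0.76 in KO. Of 8 tested retinoid genes, Rbp4 and Adh7 were higher and Aldh1a1, which makes retinoic acid, was lower, at 162 and 156 CPM in gated cells against 1168 and 856 CPM in alveolar fibroblasts, and the list medians were 0.12 and 0.097 log2. AT2 genes, a measure of foreign RNA, were lower in the gated cells in 8 of 13, and in the alveolar fibroblasts they summed to 3290 CPM in WT and 21443 in KO.

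Between genotypes, the targeted gene was read first. Pclaf had 5 UMIs in 4 of 157 WT cells of the gate, 8.34 CPM (2.71 to 19.5), and 0 UMIs in 115 KO cells, where 3 UMIs would be 5.76 CPM. At this depth no difference in these cells was detectable. Over all kept cells Pclaf stood at 39.3 CPM in WT and 5.19 in KO, where 254 cells carried 529 UMIs, so the library labelled KO was lower but not at 0.

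Of 7251 genes tested between KO and WT, 143 (1.97%) were past the fold higher in KO and 291 (4.01%) lower, with a median of -0.09 log2 over all genes. TMM scaling, which assumes that most genes do not differ, moved all ratios by 0.08 and turned this split to 184 higher and 230 lower. A minority of these calls held in the cells with the most markers: 30 of the 143 and 31 of the 291 were called the same way with 4 or 5 markers, where 57 and 77 of them had enough UMIs. In alveolar fibroblasts 29 and 68 were called the same way. With each gene's highest cell left out, 96 and 219 kept their call.

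**Figure D3:**
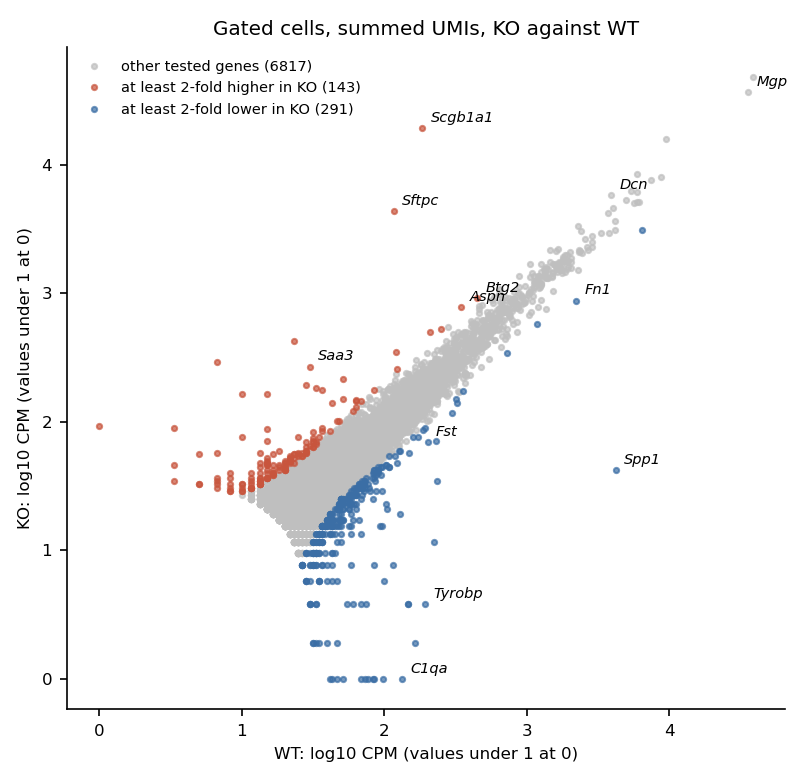
CPM in gated WT cells (x axis) against gated KO cells (y axis), both as log10 with values under 1 CPM drawn at 0, for 7251 genes; red marks 143 genes past the fold higher in KO, blue 291 lower and grey the rest. The genes farthest from the diagonal are airway and AT2 genes above it and Spp1 and immune genes below it.

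The highest KO over WT ratios were of epithelial genes. Scgb1a1, the club cell secretoglobin, had 111 UMIs in WT and 9952 in KO, a log2 ratio of 6.69 (6.42 to 6.97), and 4997 and 4387 of the KO UMIs came from 2 cells in which it made up 47.9% and 59.5% of all UMIs. Those 2 cells had 5 and 4 adventitial markers and Pi16 UMIs of their own. The surfactant gene Sftpc had 70 UMIs in 47 of 157 WT cells and 2264 in 111 of 115 KO cells, 5.22 (4.88 to 5.58). It was detected in nearly every KO cell, with 591 of its UMIs in the highest. Scgb3a2, Sftpa1, Cxcl15, Sftpb, Wfdc2 and Cbr2, genes of airway and AT2 cells, followed. Of the lists, 8 of 11 tested AT2 genes and 3 of 3 airway genes were higher, against 1.97% of all genes. The acute-phase gene Saa3 had 18 and 140 UMIs, 106 of them in 1 KO cell. The zinc finger gene Zmat4 had 9 and 46, with 40 of the KO UMIs in 2 cells, and gating on thinned cells turned it lower in KO.

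The lowest ratios were of immune genes. Spp1 (osteopontin, made by macrophages and by activated fibroblasts) had 2537 UMIs in 34 WT cells and 22 in 7 KO cells, a log2 ratio of -6.65 (-7.32 to -6.04). The 3 WT cells with most Spp1 held 982, 479 and 413 UMIs, all had 2 adventitial markers and none had Pi16. With 4 or 5 markers Spp1 was at 44.1 CPM in WT and 7.29 in KO, while in the cells just outside the gate, with 1 marker, it was at 9159 and 3592 CPM. Gating on thinned cells reversed it to 0.99 log2. Ccl6, Tyrobp, Fcer1g, C1qb, C1qa, Ctss, Wfdc17, C1qc and Cd52, genes of macrophages and other leukocytes, completed the 10 lowest. C1qa, a chain of the complement starter C1q, had 80 UMIs in WT, 57 of them in 1 cell, and 0 in KO, so it was at least 23.1-fold lower. Of 12 tested immune genes 12 were lower over all gated cells, against 4.01% of all genes. With 4 or 5 markers 3 of 4 tested were lower, Cd52 (22 and 1 UMIs), Fcer1g (21 and 1 UMIs) and Cd74 (-1.37 log2), while Lyz2, with 80 and 129 UMIs there, differed by 0.41 log2.

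**Figure D4:**
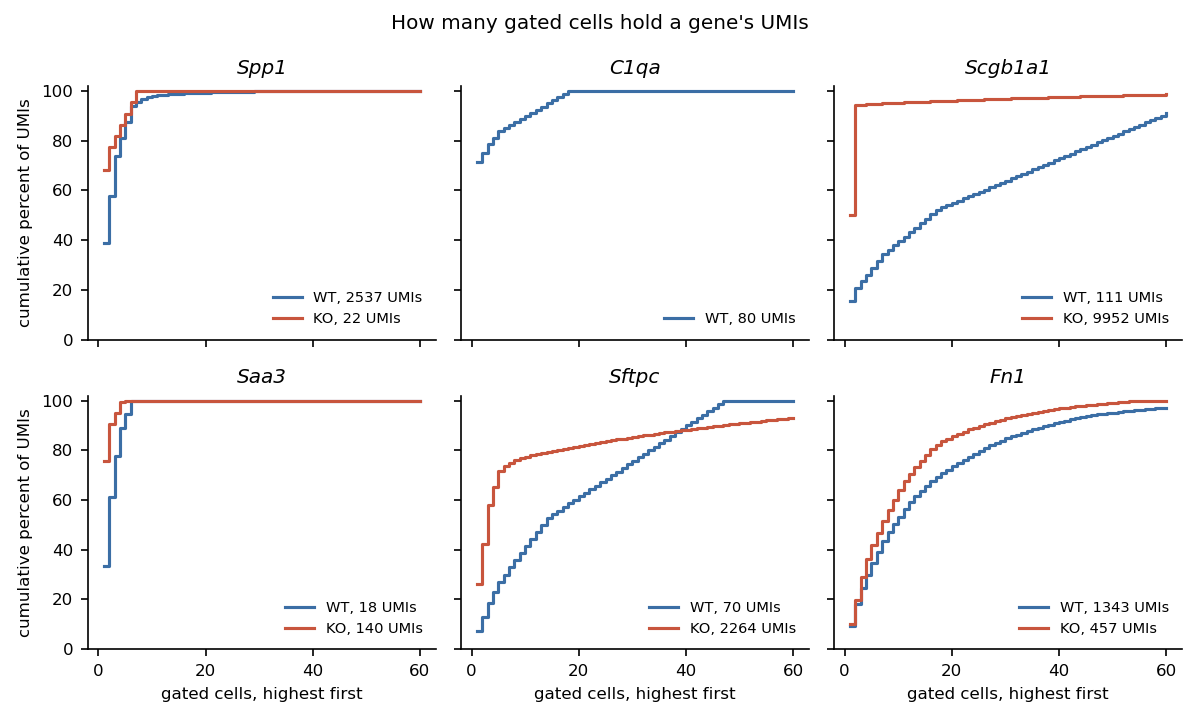
Cumulative percent of a gene's UMIs (y axis) over the gated cells ranked from most to fewest UMIs (x axis), for Spp1, C1qa, Scgb1a1, Saa3, Sftpc and Fn1, over the first 60 cells of WT and KO (C1qa had 0 UMIs in KO). Scgb1a1 in KO reaches 94.3% within 2 cells, whereas Fn1 climbs over many cells in both libraries.

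Among other differences, that of Fn1 ran over many cells. Fibronectin (Fn1), a matrix glycoprotein of wound repair, had 1343 UMIs in 92 WT cells and 457 in 54 KO cells, -1.35 (-1.51 to -1.20), and -0.97 (-1.21 to -0.74) among cells with 4 or 5 markers. In alveolar fibroblasts Fn1 was also lower in KO, at 1389 against 2754 CPM. The activin antagonist Fst (-1.54), the transcription factor Runx1 (-1.22) and the TGF-beta binding protein Ltbp2 (-1.03) were past the fold lower over all gated cells, but their intervals among cells with 4 or 5 markers included 0. Cxcl14 differed by -1.36 log2, again with an interval that included 0 in those cells, and gating on thinned cells turned Cxcl14 to 0.59 and Ltbp2 to 0.029. Higher in KO were the antiproliferative early-response gene Btg2 at 1.03 (0.81 to 1.25), the heparin-binding growth factor Mdk at 1.06 (0.55 to 1.58) and the elastic fibre protein Fbln5 at 1.04 (0.45 to 1.66). With 4 or 5 markers Btg2 (0.47, -0.02 to 0.98) and Fbln5 (0.83, 0.14 to 1.56) were not past the fold. Aspn was higher by 1.16 (0.91 to 1.41) over all gated cells and differed by -0.0070 (-0.58 to 0.57) with 4 or 5 markers. Gating on thinned cells turned Aspn lower in KO. Of 26 activated fibroblast genes, 1 was higher and 7 were lower, with a median of -0.55 log2. Over all genes 1.97% were higher and 4.01% lower. In alveolar fibroblasts the same list summed to 7600 CPM in WT and 4239 in KO, so a lower sum was not particular to the gated cells.

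Genes of the lists that describe adventitial cells are given here beside the shares over all genes, 1.97% higher and 4.01% lower. Pi16, part of the gate, stood at 612 CPM (551 to 678) in WT and 578 CPM (515 to 647) in KO. Mgp differed by 0.03, Dcn by 0.55 (0.47 to 0.62) and Col1a1 by -0.19 log2. Of 24 collagens, 0 were higher and 3 lower (Col5a3, Col7a1 and Col28a1). Of 12 complement genes, 0 passed in either direction, nor did any of 6 insulin-like growth factor binding proteins or 10 retinoid genes, and in lists this small a count of 0 is near the shares over all genes. Of 27 TGF-beta and BMP genes, 4 were lower (Tgfb1, Ltbp2, Grem1 and Fst), and of 8 tested cell cycle genes, 2 were lower, Pcna with 20 and 5 UMIs and Ccnd1. Inflammatory genes went both ways, with Saa3, Lcn2, Hp and Cxcl1 higher and Ccl2, Cxcl10, Cxcl14 and Il6 lower among 22; Lcn2 and Hp are also epithelial genes. Clic4, a chloride intracellular channel gene of interest to the study, was at 407 CPM in WT and 355 in KO, -0.19 (-0.48 to 0.09).

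In the cells with 4 or 5 markers, 4214 genes were tested between genotypes, of which 89 (2.11%) were higher in KO and 162 (3.84%) lower. Immune genes were scarcer here, at 1024 and 547 CPM, while airway genes summed to 163 CPM in WT and 35799 in KO, where this set holds both Scgb1a1-rich cells. Serpina3n, an acute-phase protease inhibitor, had 357 UMIs in WT and 163 in KO, -1.41 (-1.68 to -1.13). Igfbp4 had 724 and 432 UMIs, -1.02 (-1.20 to -0.85), and Igfbp5 225 and 108 UMIs, -1.33, so that 2 of 5 tested genes of this family were lower and 0 higher. Igfbp4 lies only just past the fold. The KO total of 274197 UMIs includes 9384 Scgb1a1 UMIs of 2 cells, which lowers the CPM of every other KO gene. Whether Igfbp4 keeps its call without those cells was not tested. Among genes with at least 50 UMIs, the others with the largest decreases were the sodium-calcium exchanger Slc8a1 (-2.24), the metallothionein Mt2 (-1.76) and the receptor Gpr39 (-1.66). Scara3 (-1.45), Lgals3bp (-1.42) and Ctgf (-1.37) came next, with Churc1, Birc6 and Shisa5 at -1.36 each.

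Genes of the interferon response and antigen presentation were read in both sets of cells. Over all gated cells 1 of 24 tested genes was past the fold lower, a share near the 4.01% of all genes. Of the 24, 18 were below 0, against 4184 of all 7251 genes, with a median of -0.41 log2. With 4 or 5 markers 4 of 11 were lower (Ifi27l2a, Bst2, Gbp2 and H2-K1), 0 were higher and 10 were below 0, against 3.84% of all genes past the fold lower and 2425 of 4214 below 0, with a median of -0.90 against -0.09 over all genes. Ifi27l2a had 263 UMIs in WT and 145 in KO, H2-K1, a class I heavy chain, 144 and 81, and Bst2 (tetherin) 61 and 34. B2m, the class I light chain and the gene of the list with most UMIs, had 337 and 221, -0.88 log2, short of the fold. The same list in alveolar fibroblasts summed to 3578 CPM in WT and 2342 in KO, so a lower sum was not particular to the gated cells.

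**Figure D5:**
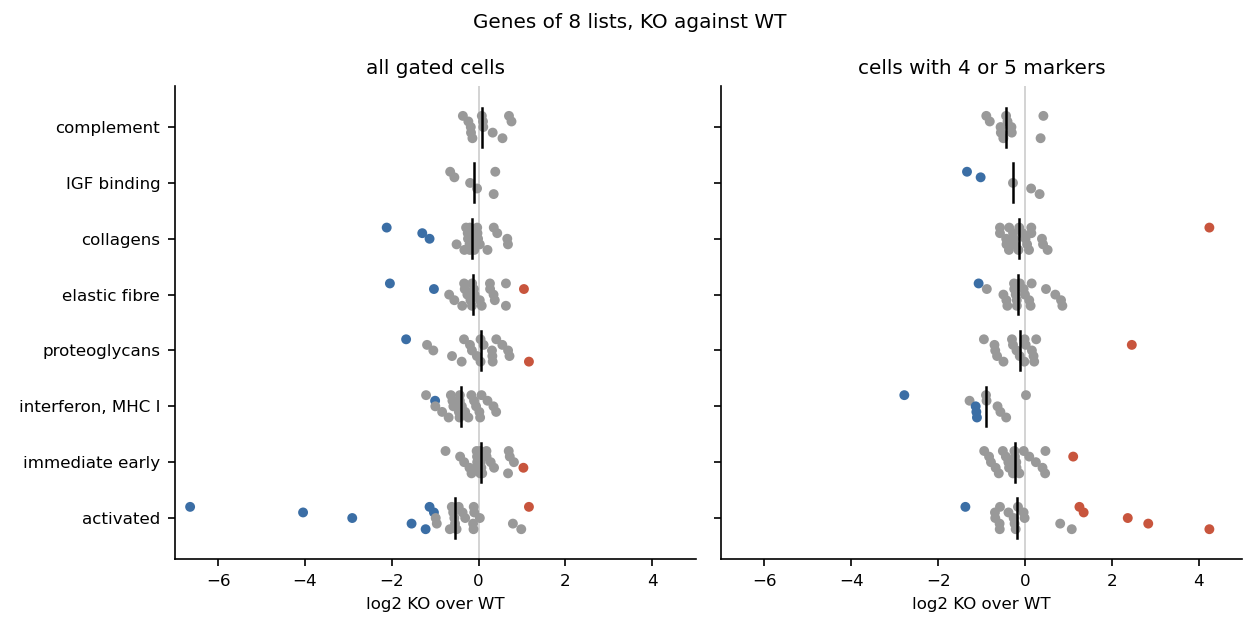
Log2 ratio KO over WT of the tested genes of 8 lists, in all gated cells and in cells with 4 or 5 markers; red and blue points are past the fold higher and lower, grey points are not, and black bars are medians. Interferon genes have a median of -0.41 over all gated cells and -0.90 with 4 or 5 markers, and complement genes have 0 past the fold in either set.

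Among genes with at least 50 UMIs that were higher in KO in cells with 4 or 5 markers, epithelial genes led again. They were followed by Serpine2 (a thrombin and plasminogen activator inhibitor), Unc5c, Rbp4 and Thbs1. Serpine2 had 10 UMIs in WT and 58 in KO, 2.26 (1.28 to 3.40), and Thbs1 (thrombospondin-1) 22 and 68, 1.35 (0.64 to 2.12). In both libraries these genes were far lower here than in the cells with 2 markers, and over all gated cells Serpine2 differed by -0.27 and Thbs1 by -0.59. For the lists that follow, the shares over all genes tested in these cells were 2.11% higher and 3.84% lower. Of 20 activated fibroblast genes, 5 were higher (Tnc, Acta2, Col8a1, Thbs1 and Myl9) and 1 was lower, while 13 were below 0 and the median was -0.19 log2. Their UMIs were few: Acta2 had 4 and 25, and Tnc (tenascin-C) 3 and 26, all 26 of the latter in cells with 4 markers. Rbp4, a retinol carrier, had 22 and 71 UMIs, 1.42 (0.71 to 2.18), whereas the retinoic acid-making enzymes Aldh1a2 (27 and 14 UMIs) and Aldh1a3 (29 and 14) differed by -1.22 and -1.33. Fgf10, a mesenchymal growth factor for epithelium, had 12 and 30 UMIs, and 2 of 16 growth factor genes, Fgf10 and Mdk, were higher. Of 21 collagens, Col8a1 alone was past the fold, with 2 and 46 UMIs, and of 11 complement genes 0 were, at a median of -0.43 log2.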

How the data were processed

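Sorted lung cells of each genotype were profiled with a 10x Chromium 3' v3.1 kit, 1 library each. The authors deposited UMI counts per gene and barcode (31053 genes, GRCm38), not normalized. The submitters' processing notes name Cell Ranger 3.1.0 and STAR, while the header of the deposited matrices names Cell Ranger 5.0.0. Barcodes with 201 to 4999 genes and under 20% mitochondrial UMIs were kept, as stated for the study, and gated on detected genes. Counts were summed over the cells of each library and scaled to CPM. Log2 ratios carry exact conditional 95% intervals for 2 Poisson counts, shares carry Clopper-Pearson intervals, and sums of 0 were set at 3 UMIs. Intervals cover counting error only. Genes with at least 20 UMIs over the sums compared were tested against the 2-fold rule, which is not a statistical test. Cells were thinned to 1000 UMIs for shares and depth checks (127 of 157 WT and 106 of 115 KO cells were deep enough).

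The gate, its members and the 38 gene lists (623 of 625 symbols found in the files) were chosen with earlier results of these data known. Named genes are the gate genes, Pclaf, up to 6 members of each list by level or size of ratio, the 10 most abundant genes, and the 10 highest and 10 lowest ratios of each comparison among genes with at least 50 UMIs. The split by marker number, its 10 highest and lowest genes and other members named with a call were chosen after their values were seen. Alternatives were the mitochondrial, gene number, marker number, Serpinf1, UMI minimum, interval and depth choices, barcodes shared by the libraries, TMM scaling (edgeR 4.0.16, R 4.3.3), a reduced total and a mean over cells. A minimum of 4 markers and leaving out each gene's highest cell, or the 2 KO cells with most Scgb1a1 and the 2 WT cells with most Spp1, were added after seeing the data. Scrublet (scanpy 1.11.5) marked 0 of 30187 WT and 0 of 15637 KO cells. This was not read as an absence of doublets, and its reason was not tested. Doublets were removed only by the excluding genes of the gate. The calculations (Python 3.11.15, numpy 2.4.6, scipy 1.17.1, pandas 2.3.3, matplotlib 3.10.9) were tested on simulated data. Results on some genes are not reported here.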

Additional observations from a re-analysis of the deposited data

Results flagged for a closer look

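Among the genes past the 2-fold rule between KO and WT in the gated cells, these 3 moved the opposite way past the same rule in alveolar fibroblasts, and none of the differences was tested. Grem1, a BMP antagonist, had 26 UMIs in 3 WT cells of the gate and 0 in KO, a log2 ratio of -2.91 with 0 set at 3 UMIs, against 0 and 26 UMIs in alveolar fibroblasts, a ratio of 2.65. Of the 26 UMIs in WT gated cells 16 were in 1 cell, and without each library's highest cell the ratio was -1.56. Wdr13 had 3 and 17 UMIs in the gated cells, 2.71 log2, against -1.03 in alveolar fibroblasts. Saa3 differed by 3.16 log2 in the gated cells and by -2.11 in alveolar fibroblasts. In the gated cells with 4 or 5 markers it had 12 UMIs in WT and 1 in KO, -3.86 log2, under the minimum of 20 UMIs for a call. In the gated KO cells 106 of 140 Saa3 UMIs were in 1 cell, and the ratio was 1.74 with each library's highest cell left out.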

How the results depend on the processing

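No paired analysis was possible because each genotype had 1 library and no test was made. The shares depended on the gate: with at least 3 of 5 markers they were 0.239% of kept cells and 3.96% of fibroblasts in WT and 0.435% and 3.07% in KO, and with at least 4 markers 0.172% and 2.86% in WT and 0.339% and 2.39% in KO. Gating on cells thinned to 1000 UMIs gave 0.655% of kept WT cells, 1.30% of kept KO cells and 9.41% of KO fibroblasts. Between KO and WT, 93 genes were higher with at least 3 markers, and 89 higher and 162 lower with at least 4. Thinning cells before summing left 36 higher and 67 lower, and a minimum of 50 UMIs left 44 and 96, both with fewer UMIs or genes to test. Against alveolar fibroblasts, thinning before summing left 117 higher and 191 lower, a minimum of 50 UMIs left 195 higher, and the thinned gate gave 189 lower. Of 45 genes named between KO and WT over all gated cells, 9 that were past the fold reversed. Genes not past the fold over all gated cells are not in that count, and with 4 or 5 markers Serpine2 went from -0.27 to 2.26 log2, Thbs1 from -0.59 to 1.35 and Acta2 from -0.37 to 2.37. Aspn went to -0.070 log2 with at least 3 markers, -0.0070 with at least 4 and -1.29 under the thinned gate, Lyz2 to 0.20 and 0.41 with at least 3 and 4 markers, and Saa3 to -3.86 with at least 4, from 12 and 1 UMIs, under the minimum for a call. The thinned gate also turned Cxcl14 to 0.59, Fgf2 to 0.074, Lgr6 to -1.85, Ltbp2 to 0.029, Spp1 to 0.99 and Zmat4 to -0.77, and the cause was not tested. The other 62 shares and counts under an alternative stayed within their limits (an interval, or 1.5 times the count). Leaving out doublets called by Scrublet was not run, since none was called. With 115 KO cells, 3 UMIs correspond to 5.76 CPM, which limits any statement on genes as low as Pclaf.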

Other observations

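Gated cells with 3 markers, 20 in WT and 15 in KO, are in the sums over all gated cells but on neither side of the comparison by marker number. Their C3 level lay between those of the cells with fewer and with more markers, at 693 CPM in WT and 1314 in KO, and they held 8 and 4 UMIs of Hhip. Outside the gate, 295 WT and 87 KO collagen-expressing cells passed the exclusions with fewer than 2 markers of each list, adventitial and alveolar. Among these, cells with both Cthrc1 and Postn, genes of fibrotic fibroblasts, numbered 5 in WT and 0 in KO. Fibroblasts with at least 2 markers of either list, the gated cells included, are not in this count.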
